A study of Homo sapiens with 6 samples.

Results

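The genes that write, erase and read DNA methylation were followed in SEM cells, a human B-cell acute lymphoblastic leukemia line, expressing either intact CTCF or CTCF without its RNA-binding region. They were taken by gene symbol and comprise 10 of the 57820 genes listed: the methyltransferases *DNMT1*, *DNMT3A* and *DNMT3B*, the maintenance factor *UHRF1*, the dioxygenases *TET1*, *TET2* and *TET3*, and the methyl-CpG-binding domain genes *MBD1*, *MBD2* and *MBD3*. Each symbol matched a single listed gene. The question of the comparison was whether loss of the RNA-binding region of CTCF altered transcription, and total RNA depleted of ribosomal RNA was sequenced in 3 libraries per group.

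In the cells of the study, endogenous CTCF carried a miniAID-mClover3 tag that allows its degradation through constitutively expressed OsTIR1(F74G). Per the methods, the cells received the degrader 5-Ph-IAA for 24 hours in all, and doxycycline at 1 µg/mL for the last 18 of these hours, to induce an HA-tagged CTCF transgene. The transgene encoded wild-type CTCF in the group called CTCF-WT and CTCF lacking the RNA-binding region in the group called CTCF-dRBR. The CTCF-dRBR labels list the tagged endogenous allele together with TRE3G-HA-CTCF-dRBR, while the genotype label of CTCF-WT lists only the tagged allele, so the CTCF-WT group was taken from the sample titles. All titles carry the same code, C27, whose meaning the labels do not give. Both groups carried the degradable allele, so the comparison contained no cells with untagged CTCF, and nothing in the labels states that the replicates were separate cultures. The p-values below therefore measure the spread between libraries, which may be technical.

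In mammalian cells DNMT1 copies methylation onto the new DNA strand after replication, and UHRF1 brings it to hemimethylated CpG sites. DNMT3A and DNMT3B set methylation at new sites, while the TET enzymes oxidize 5-methylcytosine and so start its removal. MBD1 and MBD2 bind methylated CpG through a shared domain, whereas mammalian MBD3 binds it poorly and, like MBD2, is a subunit of NuRD, a complex that joins nucleosome remodeling to histone deacetylation. In blood cell precursors, *DNMT3A* and *TET2* are known as recurrent targets of mutation in leukemia.

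The libraries held between 30034505 and 53166735 expected counts, the lowest in CTCF-dRBR replicate 1. That library also stood apart in its profile, with Spearman correlations to the other libraries of 0.913 to 0.968, against 0.971 to 0.997 among the other 5. In all libraries the deviation of a gene from its mean moved with the GC content of its exons, with Spearman correlations across 13746 genes from -0.780 in CTCF-dRBR replicate 1 to 0.709 in CTCF-WT replicate 1. Total *CTCF* mRNA, which sums the endogenous and transgenic transcripts the counting could assign, lay between 210 and 249 CPM (expected counts scaled to a common library total and normalized by TMM) in CTCF-WT and between 252 and 273 CPM in CTCF-dRBR. Of 9 B-lineage markers, 8 passed the expression filter, with a summed level of 652 to 780 TPM (scaled per gene length and to the protein-coding total) in CTCF-WT and 389 to 926 TPM in CTCF-dRBR. Of the T cell, erythroid and fibroblast markers none passed, with sums between 0 and 0.949 TPM in any library, and 2 of 4 myeloid markers did, with summed levels of 11.9 to 13.8 TPM in CTCF-WT and 9.98 to 13.3 TPM in CTCF-dRBR. In such bulk RNA, fewer cells expressing a gene and less RNA per cell cannot be told apart.

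CpG sites are the substrate of these proteins, and the genes themselves differ in how many CpG sites lie before the starts listed for them. All 10 genes matched a RefSeq promoter on GRCh38.p14, and the 250 bases before the first listed start held a median of 21 CpG sites (range 3 to 37), against a median of 11 over 27305 promoters. *TET3* had the most, 37, more than 96.1% of promoters, followed by *MBD3* with 32 and *UHRF1* with 28. *DNMT3B* had 3 and *TET1* had 9. The sequences of 5 genes are given to show this contrast between the windows read. That of *DNMT3B* held 3 CpG sites, those of *DNMT1*, *UHRF1* and *MBD3* held more, and *TET1* lay between them. For *DNMT3B* 1 start was listed, and whether it is the start used in these cells was not tested. Windows before any other starts of the genes were not read. They are written 5′ to 3′ on the strand of the gene, with each CpG in capitals, and cover chr19:10194954-10195203 (minus strand), chr20:32779602-32779851 (plus), chr19:4909251-4909500 (plus), chr10:68560087-68560336 (plus) and chr19:1592866-1593115 (minus).
DNMT1: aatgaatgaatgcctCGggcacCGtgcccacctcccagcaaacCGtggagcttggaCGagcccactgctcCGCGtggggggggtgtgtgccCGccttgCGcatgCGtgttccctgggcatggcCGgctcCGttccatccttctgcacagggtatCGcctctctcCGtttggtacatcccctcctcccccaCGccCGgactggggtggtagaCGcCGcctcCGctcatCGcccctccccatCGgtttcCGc
DNMT3B: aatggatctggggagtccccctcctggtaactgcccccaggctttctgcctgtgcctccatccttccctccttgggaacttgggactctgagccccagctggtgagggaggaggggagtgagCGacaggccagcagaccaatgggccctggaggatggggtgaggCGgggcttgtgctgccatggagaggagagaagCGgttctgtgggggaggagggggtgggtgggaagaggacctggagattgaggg
UHRF1: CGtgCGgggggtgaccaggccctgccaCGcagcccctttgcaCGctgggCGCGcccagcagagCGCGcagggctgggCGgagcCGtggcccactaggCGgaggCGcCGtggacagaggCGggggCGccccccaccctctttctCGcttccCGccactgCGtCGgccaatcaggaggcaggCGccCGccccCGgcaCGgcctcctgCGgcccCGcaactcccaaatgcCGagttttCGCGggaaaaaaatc
TET1: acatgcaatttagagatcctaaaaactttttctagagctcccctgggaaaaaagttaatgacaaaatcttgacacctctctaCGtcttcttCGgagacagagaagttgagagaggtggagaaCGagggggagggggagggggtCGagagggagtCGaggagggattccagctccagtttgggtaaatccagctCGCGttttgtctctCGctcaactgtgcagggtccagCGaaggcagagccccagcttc
MBD3: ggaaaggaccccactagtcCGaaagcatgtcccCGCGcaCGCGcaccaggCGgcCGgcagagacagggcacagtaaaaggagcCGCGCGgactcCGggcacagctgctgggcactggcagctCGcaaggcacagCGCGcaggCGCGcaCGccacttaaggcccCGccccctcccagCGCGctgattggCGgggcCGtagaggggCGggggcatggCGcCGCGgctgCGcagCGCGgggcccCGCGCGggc
The letters TTTCCCGC, one form of the E2F motif, were present on either strand in 1 of the 10 windows, that of *UHRF1*, and in 1.42% of all windows of this length. The other forms searched, TTTGGCGC and TTTCGCGC, were in 0 of the 10 windows and in 0.553% and 0.469% of all windows. Methylation of these windows was not analysed here.

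By limma-voom, none of the 9 genes tested passed the adjusted threshold between CTCF-dRBR and CTCF-WT. DESeq2 called 1 of them and quality weights 7, beside 11.5% and 68.2% of all genes. The lowest unadjusted p by limma-voom belonged to *DNMT3A*, which lay lower in every CTCF-dRBR library than in any CTCF-WT library. *TET2* and *DNMT3B* were higher in every CTCF-dRBR library and *MBD1* was lower in every one, but none of these differences passed limma-voom. *TET1*, which was not tested, was also higher in every CTCF-dRBR library. Of all genes tested, 37.5% likewise did not overlap between the groups, and 25.4% had an unadjusted p under 0.05 by limma-voom. *MBD3* had the most negative log2 fold change, -1.66 with all libraries and -0.82 without CTCF-dRBR replicate 1. These values are shown in the plot of expression by library and in the plot of fold changes.

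Of the 10 genes, 9 exceeded 1 CPM in at least 1 library and were tested, while *TET1* was not. By limma-voom, 0 of the 9 passed an adjusted p of 0.05, as did 0 of 14044 genes tested in all (0%). At an unadjusted p under 0.05 there was 1 of the 9, *DNMT3A*, against 25.4% of all genes. By edgeR's quasi-likelihood test 0 of the 9 passed, with 1 at an unadjusted p under 0.05 (24.6% of all genes), and by DESeq2 1 passed, *DNMT3A*, with an adjusted p of 0.0082, where DESeq2 called 11.5% of all genes. Weighting the libraries by quality in limma called 7 of the 9, beside 68.2% of all genes, and the weights ran from 0.0969 for CTCF-dRBR replicate 1 to 6.19 for CTCF-dRBR replicate 2. CPM of the groups did not overlap for 4 of the 9, with 2 higher (*DNMT3B* and *TET2*) and 2 lower (*DNMT3A* and *MBD1*) in CTCF-dRBR, against 37.5% of all genes, of which 20% were higher and 17.5% lower.

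**Figure D1:**
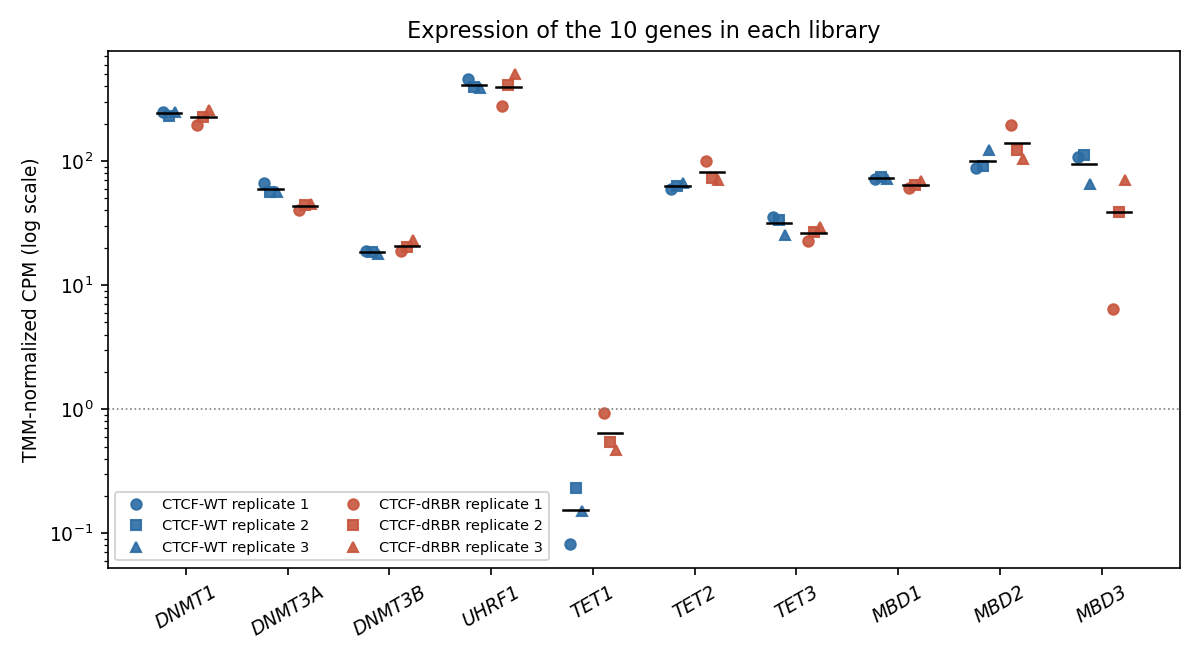
TMM-normalized CPM of the 10 genes (log axis) in each of the 3 CTCF-WT (blue) and 3 CTCF-dRBR (red) libraries, with the mean of each group as a bar and the expression minimum of 1 CPM as a dotted line. *TET1* lies under the line in every library, *DNMT3A* does not overlap between the groups, and *MBD3* of CTCF-dRBR replicate 1, at 6.41 CPM, is far below the other libraries.

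**Figure D2:**
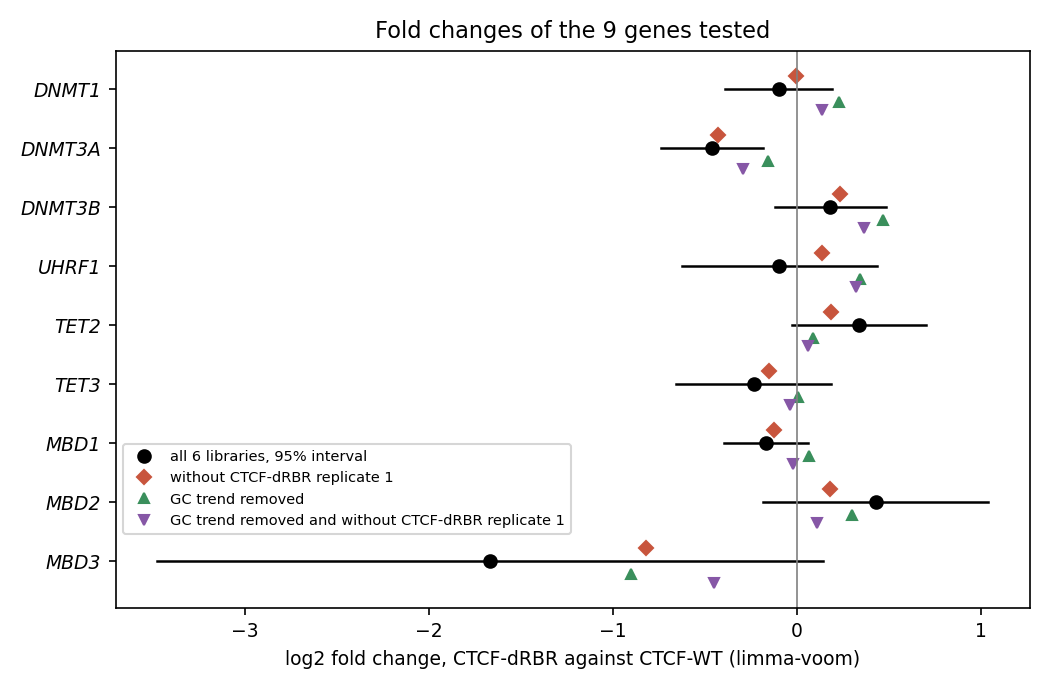
Log2 fold change of the 9 tested genes, CTCF-dRBR against CTCF-WT, by limma-voom with 95% confidence intervals, beside the values when CTCF-dRBR replicate 1 was left out, when the trend over GC content was removed, and with both changes. The interval of *DNMT3A* alone excludes 0, and that of *MBD3* runs from -3.47 to 0.14.

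*DNMT1* (ENSG00000130816.10, GRCh37 chromosome 19, 10244018 to 10341962, minus strand) encodes the maintenance methyltransferase. Its normalized expression was 249, 232 and 248 CPM in CTCF-WT replicates 1 to 3 and 197, 228 and 259 CPM in CTCF-dRBR replicates 1 to 3. CTCF-dRBR held both the lowest and the highest library, so the groups overlapped. On the log2 scale the fold change was -0.10 ± 0.12 (SE, n = 3 per group, 95% interval -0.39 to 0.19, adjusted p = 0.582 by limma-voom). In deposited TPM, which are per length, the same gene gave another picture, with 41.7, 50.6 and 114 TPM in CTCF-WT and 200, 114 and 92.7 TPM in CTCF-dRBR. The difference in mean TPM, from 68.6 to 136, had an exact permutation p of 0.2 (two-sided), and the difference of 67.2 TPM was 34.9 TPM without CTCF-dRBR replicate 1.

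The counts behind 1 TPM of *DNMT1* also differed between libraries. Counts per TPM, relative to the median gene of each library, follow the effective gene length that RSEM weights by isoform. For *DNMT1* they were 1.26, 1.19 and 0.889 in CTCF-WT and 0.487, 0.910 and 0.979 in CTCF-dRBR, so the CTCF-dRBR replicate 1 value lay lowest. The highest was 2.58 times the lowest, a wider span than in 99.5% of 10509 genes, whose median span was 1.21. *MBD1* had the next widest span, 1.68, more than 93.1% of genes, with a value of 1.69 in CTCF-dRBR replicate 1 and between 1.01 and 1.08 in the other 5 libraries. For the other genes the span was between 1.10 and 1.43. Which isoforms the estimates assigned was not analysed here.

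**Figure D3:**
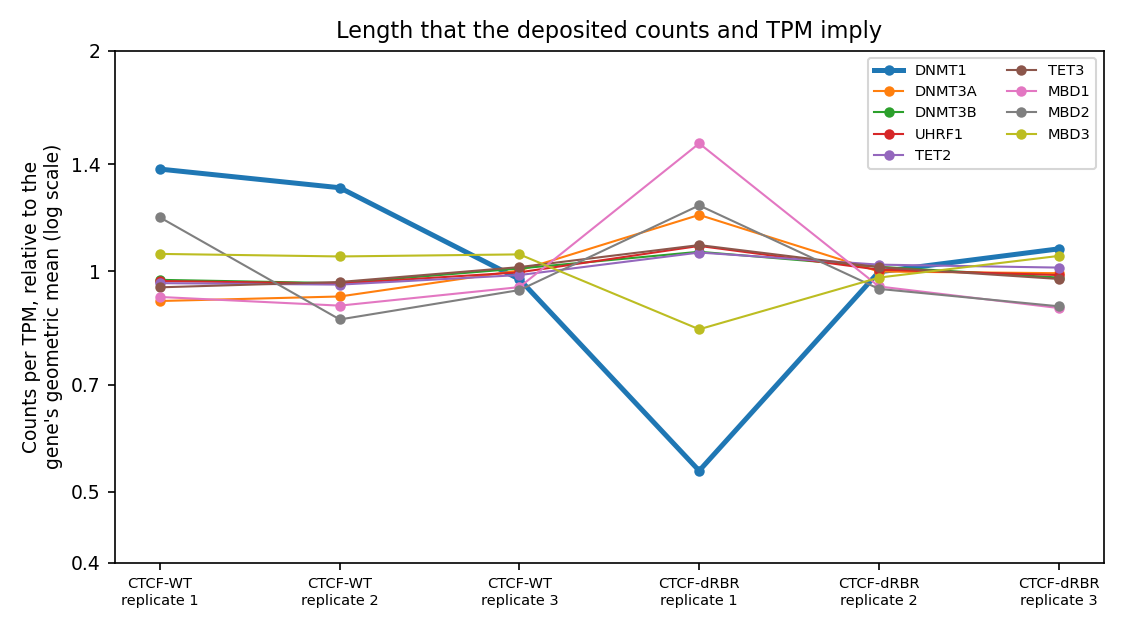
Expected counts per TPM of each gene in the 6 libraries (log axis), divided by the median gene of the library and then by the gene's own geometric mean. Before this second division, *DNMT1* ranged from 0.487 in CTCF-dRBR replicate 1 to 1.26 in CTCF-WT replicate 1. *MBD1* stands above the other libraries in CTCF-dRBR replicate 1, where its value before the second division was 1.69.

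*UHRF1* (ENSG00000034063.9, chromosome 19, 4903092 to 4962165, plus strand), whose protein recognizes hemimethylated DNA, had the highest CPM of the 10 genes. It was at 458, 393 and 388 CPM in CTCF-WT and at 277, 412 and 501 CPM in CTCF-dRBR. The 3 CTCF-dRBR libraries bracketed all CTCF-WT libraries. Its log2 fold change was -0.09 ± 0.22 (SE, 95% interval -0.62 to 0.44, adjusted p = 0.774 by limma-voom). Its sign depended on 1 library and on GC content: without CTCF-dRBR replicate 1 it was 0.14, and with the GC trend removed it was 0.35, with an adjusted p of 0.0356 by limma, in a fit that called 9.3% of all genes. The symbol is listed under the biotype processed_transcript, and its expected counts were not whole numbers, as RSEM gives where reads match more than a single gene.

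*DNMT3A* (ENSG00000119772.12, chromosome 2, 25450724 to 25565459, minus strand) encodes a methyltransferase that acts on new sites. Its expression was 67.1, 56.8 and 55.9 CPM in CTCF-WT and 40.7, 44.3 and 44.8 CPM in CTCF-dRBR. The highest CTCF-dRBR value was below the lowest CTCF-WT value, and the means were 59.9 ± 6.26 and 43.3 ± 2.25 CPM (SD, n = 3). The log2 fold change was -0.46 ± 0.12 (SE, 95% interval -0.74 to -0.18), with an unadjusted p of 0.00625 and an adjusted p of 0.130 by limma-voom. An exact permutation test of the CPM gave p = 0.1, the smallest that 3 libraries against 3 allow. Deposited TPM showed 10.9, 11.1 and 15.9 in CTCF-WT and 11.8, 14.2 and 11.03 in CTCF-dRBR, which overlapped (exact permutation p = 0.9). Protein-coding genes made up 30.2% to 63.2% of the TPM of a library, and after rescaling to the protein-coding total the values were 35.97, 31.1 and 30.3 TPM against 18.7, 26.0 and 25.4 TPM, without overlap. With the GC trend removed the log2 fold change was -0.16. When CTCF-dRBR replicate 1 was also left out it was -0.29 (adjusted p = 0.057 by limma), in a fit that called 23.5% of all genes.

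*DNMT3B* (ENSG00000088305.14, chromosome 20, 31350191 to 31397165, plus strand), the other methyltransferase of new sites, was expressed at 18.7, 18.5 and 17.98 CPM in CTCF-WT. In CTCF-dRBR it was at 18.8, 20.5 and 23.1 CPM, each above the CTCF-WT libraries, though by little in replicate 1. The log2 fold change was 0.18 ± 0.12 (SE, 95% interval -0.12 to 0.48, adjusted p = 0.335 by limma-voom). It was 0.10 when CTCF-dRBR replicate 3 was left out. With the GC trend removed it was 0.47 (adjusted p = 0.055 by limma), and 0.37 when CTCF-dRBR replicate 1 was also left out (adjusted p = 0.0159), in a fit that called 23.5% of all genes.

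The balance of the methyltransferases was read as ratios within a library, which do not depend on how the library was scaled. The log2 ratio of *DNMT3B* to *DNMT3A* in CPM was -1.85, -1.62 and -1.64 in CTCF-WT and -1.11, -1.11 and -0.95 in CTCF-dRBR. It was higher in all 3 CTCF-dRBR libraries, by 0.64 in CPM and by 0.75 in TPM, with an exact permutation p of 0.1 in each unit and an adjusted p of 0.25 over the 5 ratios compared. The exons of these genes have 53.7% and 54.1% GC, and the part of GC content in the ratio was not tested. The ratio of *DNMT1* to *DNMT3A* was higher without overlap, by 0.37 in CPM and 1.07 in TPM (exact permutation p = 0.1 and adjusted p = 0.25 in each). Both ratios are taken to *DNMT3A*, whose CPM alone did not overlap, so they are not separate results. The value in TPM also carries the counts per TPM of *DNMT1*, whose highest was 2.58 times the lowest. The share of all gene pairs whose ratio does not overlap was not computed. For *UHRF1* to *DNMT1* the groups overlapped, with a difference of -0.60 in TPM and 0.0037 in CPM (exact permutation p = 0.4 and 1). These values are seen in the plot of ratios by library.

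**Figure D4:**
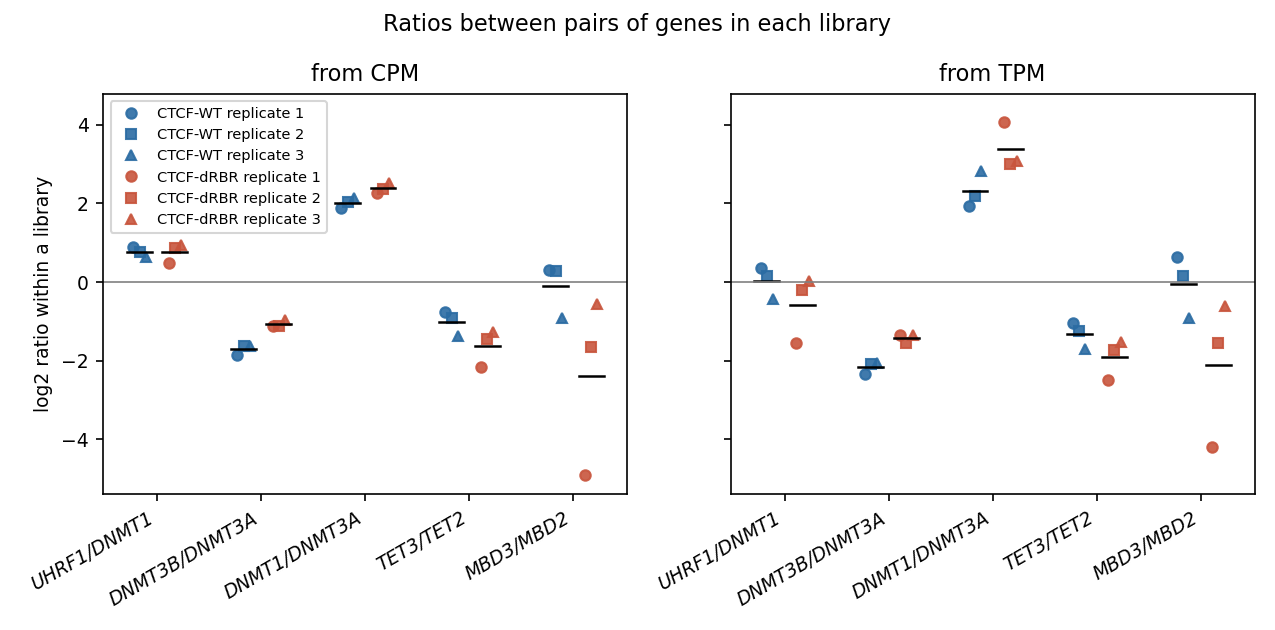
Log2 ratio between pairs of the genes within each library, from CPM (left) and TPM (right), with 3 CTCF-WT (blue) and 3 CTCF-dRBR (red) libraries and group means as bars. *DNMT3B*/*DNMT3A* and *DNMT1*/*DNMT3A* do not overlap between the groups in either unit, while *MBD3*/*MBD2* spreads widely within CTCF-dRBR.

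*TET1* (ENSG00000138336.8, chromosome 10, 70320094 to 70454244, plus strand) was close to the limit of detection. It had 4, 12 and 8 counts in CTCF-WT and 28, 28 and 24 counts in CTCF-dRBR, or 0.0815, 0.234 and 0.151 CPM against 0.936, 0.543 and 0.466 CPM. Each CTCF-dRBR library was above each CTCF-WT library, although 3 counts alone amount to 0.0564 to 0.0999 CPM before TMM scaling. Exact Poisson intervals (95%, counting error only) reached from 1.09 to 10.2, from 6.20 to 21.0 and from 3.45 to 15.8 counts in CTCF-WT replicates 1 to 3. In CTCF-dRBR they reached from 18.6 to 40.5 counts in replicates 1 and 2 and from 15.4 to 35.7 counts in replicate 3. Scaled to CPM, the interval of CTCF-WT replicate 2 (0.121 to 0.408 CPM) overlapped those of CTCF-dRBR replicates 2 and 3. The latter began at 0.361 and 0.298 CPM. The interval of CTCF-WT replicate 3 ended just under these, at 0.297 CPM. The exact permutation p was 0.1. Without the expression filter, the log2 fold change was 1.92 ± 0.48 (SE) with an adjusted p of 0.210 by limma-voom, so the difference did not pass there either.

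*TET2* (ENSG00000168769.8, chromosome 4, 106067032 to 106200973, plus strand) was the most abundant of the 3 dioxygenases per length. Its expression was 59.6, 63.4 and 66.3 CPM in CTCF-WT and 100.2, 73.2 and 71.0 CPM in CTCF-dRBR. The lowest CTCF-dRBR value exceeded the highest CTCF-WT value, and replicate 1 of CTCF-dRBR stood highest. The log2 fold change was 0.34 ± 0.15 (SE, 95% interval -0.03 to 0.70, adjusted p = 0.210 by limma-voom), 0.19 without CTCF-dRBR replicate 1 and 0.09 after the GC trend was taken out. *TET3* (ENSG00000187605.11, chromosome 2, 74212037 to 74335303, plus strand) was at 35.4, 33.5 and 25.6 CPM in CTCF-WT and at 22.5, 27.04 and 29.4 CPM in CTCF-dRBR. The groups overlapped, with a log2 fold change of -0.23 ± 0.18 (SE, 95% interval -0.65 to 0.19, adjusted p = 0.369 by limma-voom), and -0.15 without either CTCF-WT replicate 1 or CTCF-dRBR replicate 1. An RNA gene on the same strand shares 390 exon bases with *TET3*. The ratio of *TET3* to *TET2* differed by -0.59 in TPM with overlapping groups (exact permutation p = 0.2, adjusted p = 0.25), and by -0.30 without CTCF-dRBR replicate 1.

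Among the readers, *MBD1* (ENSG00000141644.13, chromosome 18, 47793252 to 47808144, minus strand) varied least. It was at 72.3, 73.9 and 71.5 CPM in CTCF-WT and at 60.2, 64.2 and 69.4 CPM in CTCF-dRBR, each below the lowest CTCF-WT library. Its log2 fold change was -0.16 ± 0.09 (SE, 95% interval -0.39 to 0.06, adjusted p = 0.273 by limma-voom), and in deposited TPM the groups overlapped (exact permutation p = 0.6). *MBD2* (ENSG00000134046.7, chromosome 18, 51677976 to 51751039, minus strand) was at 88.2, 91.7 and 123 CPM in CTCF-WT and at 194, 123 and 104 CPM in CTCF-dRBR. The high value was that of CTCF-dRBR replicate 1, and the other libraries of the groups overlapped. On the log2 scale the fold change was 0.43 ± 0.25 (SE, 95% interval -0.18 to 1.04, adjusted p = 0.282 by limma-voom) and 0.18 without that library.

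*MBD3* (ENSG00000071655.13, chromosome 19, 1573595 to 1592864, minus strand) spread most between libraries. Its expression was 109, 111 and 65.6 CPM in CTCF-WT and 6.41, 38.9 and 71.0 CPM in CTCF-dRBR. CTCF-dRBR replicate 3 lay above CTCF-WT replicate 3, and CTCF-dRBR replicate 1 lay far below every other library. The means were 95.3 ± 25.8 and 38.8 ± 32.3 CPM (SD, n = 3), and the log2 fold change was -1.66 ± 0.75 (SE, 95% interval -3.47 to 0.14, adjusted p = 0.212 by limma-voom). Without CTCF-dRBR replicate 1 the log2 fold change was -0.82 (adjusted p = 0.143), and without CTCF-dRBR replicate 3 it was -2.41. With the GC trend removed it was -0.90, and -0.45 when CTCF-dRBR replicate 1 was also left out, with an adjusted p of 0.0488 by limma in that fit, which called 23.5% of all genes.

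The read-through locus listed as *UQCR11* (ENSG00000267059) shares 767 exon bases with *MBD3* on the same strand, and the expected counts of *MBD3* were not whole. That locus was at 9.67, 10.4 and 14.3 CPM in CTCF-WT and at 8.09, 12.3 and 16.0 CPM in CTCF-dRBR, so in replicate 1 of CTCF-dRBR it exceeded *MBD3*. The log2 ratio of *MBD3* to *MBD2* in CPM was 0.30, 0.28 and -0.90 in CTCF-WT and -4.92, -1.66 and -0.55 in CTCF-dRBR. The groups overlapped, and the exact permutation p was 0.2 in TPM and in CPM (adjusted p = 0.25).

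GC content moved with these values. The exons of *MBD3* have 63.0% GC, the highest of the 10 genes, and those of *TET2*, *TET1* and *MBD2* the lowest, 40.9%, 42.1% and 45.0%. The other 6 genes lie between 52.5% and 55.8%, and the median of all tested genes was 46.9%. Of the tested genes, *MBD2* and *TET2* had the highest fold changes and *MBD3* had the lowest. The part of GC content in the fold changes was not tested beyond the fit with its trend removed, in which *DNMT1*, *UHRF1*, *TET3* and *MBD1* had the opposite sign, at 0.23, 0.35, 0.0079 and 0.07.

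The order of the levels was compared on TPM rescaled to the protein-coding total, over all 6 libraries. Mean levels were 206 ± 65.3 TPM for *DNMT1*, 167 ± 36.3 for *UHRF1*, 86.7 ± 23.7 for *MBD2*, 50.7 ± 27.4 for *MBD3* and 47.7 ± 9.95 for *MBD1* (SD, n = 6). Below these lay *DNMT3A* at 27.9 ± 5.93 TPM, *TET2* at 13.6 ± 2.66, *DNMT3B* at 7.97 ± 1.19, *TET3* at 4.41 ± 0.735 and *TET1* at 0.0622 ± 0.0549. *DNMT1* and *UHRF1* did not differ beyond their spread (exact sign-flip permutation p = 0.406, *DNMT1* higher in 3 of 6 libraries). The same held for *MBD2* and *MBD3* (exact p = 0.156, 4 of 6) and for *MBD3* and *MBD1* (exact p = 0.688, 3 of 6). *UHRF1* lay above *MBD2* in 5 of 6 libraries, by 80.4 ± 50.5 TPM (SD of the differences), with an exact sign-flip permutation p of 0.0625. Each step from *MBD1* down to *TET1* held in 6 of 6 libraries, with an exact permutation p of 0.03125, the smallest 6 libraries can give, and an adjusted p of 0.0563 over 9 neighbouring pairs. *MBD3* and *MBD1* changed places when either CTCF-WT replicate 1 or CTCF-WT replicate 2 was left out. The level of *DNMT1* rests on its counts per TPM, whose highest was 2.58 times the lowest. In CPM, which is not per length, *UHRF1* lay above *DNMT1* in each library, with log2 ratios of 0.49 to 0.95.

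Similarity of pattern was measured as the root mean square difference of log2 CPM after centring each gene on its mean over the 6 libraries. Among the members, *DNMT1* and *MBD1* were nearest to each other, at 0.0808, and *TET2* and *MBD2* likewise, at 0.168. *DNMT3A* was nearest to *TET3* at 0.164, *TET3* to *MBD1* at 0.152, and both *DNMT3B* and *UHRF1* to *DNMT1*, at 0.143 and 0.154. The nearest to *MBD3* was *UHRF1*, at 1.16, but such a distance grows with the spread of the gene itself, and *MBD3* spread most. Each distance was therefore set beside the root mean square of the gene's own centred values. For *MBD3* the distance was the smaller of these. Only for *DNMT3B* was it the larger, so its profile lay closer to a flat line than to *DNMT1*. Among all tested protein-coding genes the nearest were *RPP38* for *DNMT1* (0.0249), *TYMS* for *DNMT3A* (0.0300), *SLC9A7* for *DNMT3B* (0.0366), *SLX4* for *UHRF1* (0.0480) and *SQLE* for *TET2* (0.0165). They were *MED26* for *TET3* (0.0273), *AKAP8* for *MBD1* (0.0113), *THOC7* for *MBD2* (0.0461) and *EVA1B* for *MBD3* (0.105). The libraries share depth and GC trends, so these distances are descriptions only.

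The other genes of the pathway were read in lists, with 69 entries tested when *MBD4*, which is in 2 lists, is counted once. *KMT2B* is listed under 2 identifiers and counts as 2 entries. By limma-voom 0 of the 69 were called and 19 had an unadjusted p under 0.05 (25.4% of all genes). DESeq2 called 15 (11.5% of all genes). Over all genes tested the median log2 fold change was -0.0076, and at an unadjusted p under 0.05 there were 12.6% higher and 12.8% lower in CTCF-dRBR. The list of maintenance partners also held *QSER1*, at 0.30, and *DNMT3L*, so it was not confined to maintenance. Of its entries, 6 of the 8 tested had positive and 2 had negative log2 fold changes (median 0.25, 1 unadjusted in each direction). Their median was 0.063 without CTCF-dRBR replicate 1, 0.028 with the GC trend removed and -0.037 with both. The most abundant were *PCNA*, the replication clamp, at -0.22, *CDCA7* at 0.05 and *HELLS*, the remodeler that works with CDCA7, at 0.31. *DNMT3L*, the inactive partner of DNMT3A, was listed with 0 counts in every library.

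For active demethylation and base excision repair, 4 of the 8 tested had positive and 4 had negative values (median -0.13, 1 unadjusted in each direction). *OGT*, which adds GlcNAc and binds TET proteins, was at 0.23, the glycosylase gene *TDG* at 0.01 and the endonuclease gene *APEX1* at -1.01. The next list joined other methyl-CpG readers with genes of MBD-domain proteins. Of its 11 entries, 7 had positive and 4 negative values (median 0.18, 2 unadjusted, both higher). *MBD4*, a glycosylase gene, was at 0.33, the histone methyltransferase gene *SETDB1* at 0.06 and *ZBTB33*, which encodes Kaiso, at 0.27. Leaving out CTCF-dRBR replicate 1 brought the median of this list to 0.013, and removing the GC trend to 0.079. The demethylation list had a median of -0.12 without that library and of 0.070 with the GC trend removed. Of 8 listed loci with a CXXC domain, which binds unmethylated CpG, 3 had positive and 5 negative values (median -0.34, 1 unadjusted higher and 2 lower). Among the 5 were both entries of *KMT2B*, at -0.78 and -1.02, so that gene counts as 2 in this list. *CXXC1* was at -0.65, *CXXC5* at 0.37 and *KDM2B* at -0.31. The CXXC median was -0.22 without CTCF-dRBR replicate 1, and after removal of the GC trend it was -0.018, where *CXXC1* was also at -0.018.

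The partners of MBD2 and MBD3 in NuRD showed 2 positive and 10 negative log2 fold changes among 12 tested (median -0.10, 1 unadjusted, lower), with the chaperone gene *RBBP4* at 0.11, the remodeler gene *CHD4* at -0.22 and the deacetylase gene *HDAC2* at -0.01. In the S-adenosylmethionine and folate list, the supply of methyl groups, 7 of 10 values were negative (median -0.52) and 5 had an unadjusted p under 0.05, all lower. *SHMT2*, a serine hydroxymethyltransferase, was at -0.85, and the S-adenosylmethionine synthetase genes *MAT2A* and *MAT2B* were at -0.50 and 0.19. The median of this list was -0.30 without CTCF-dRBR replicate 1, -0.30 with the GC trend removed and -0.24 with both. DESeq2 called 4 of these 10, all lower (11.5% of all genes), and limma with the GC trend removed also called 4, all lower (9.3% of all genes). Of 13 S-phase genes, 12 had negative values (median -0.49, 4 unadjusted, all lower), with *MCM4* at -0.14, *MCM7* at -0.51 and *MCM3* at -0.23, all subunits of the replicative helicase. The S-phase median was -0.18 without CTCF-dRBR replicate 1, -0.18 with the GC trend removed and -0.12 with both. DESeq2 called 3 of the 13, all lower (11.5% of all genes). With the GC trend removed and CTCF-dRBR replicate 1 left out, limma called 4 lower and 1 higher, the licensing factor gene *CDT1* (0.30, adjusted p = 0.0356), beside 23.5% of all genes. Without CTCF-dRBR replicate 1, limma-voom called 1 of the S-adenosylmethionine list and 2 of the S-phase list, all lower, beside 3.9% of all genes.

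**Figure D5:**
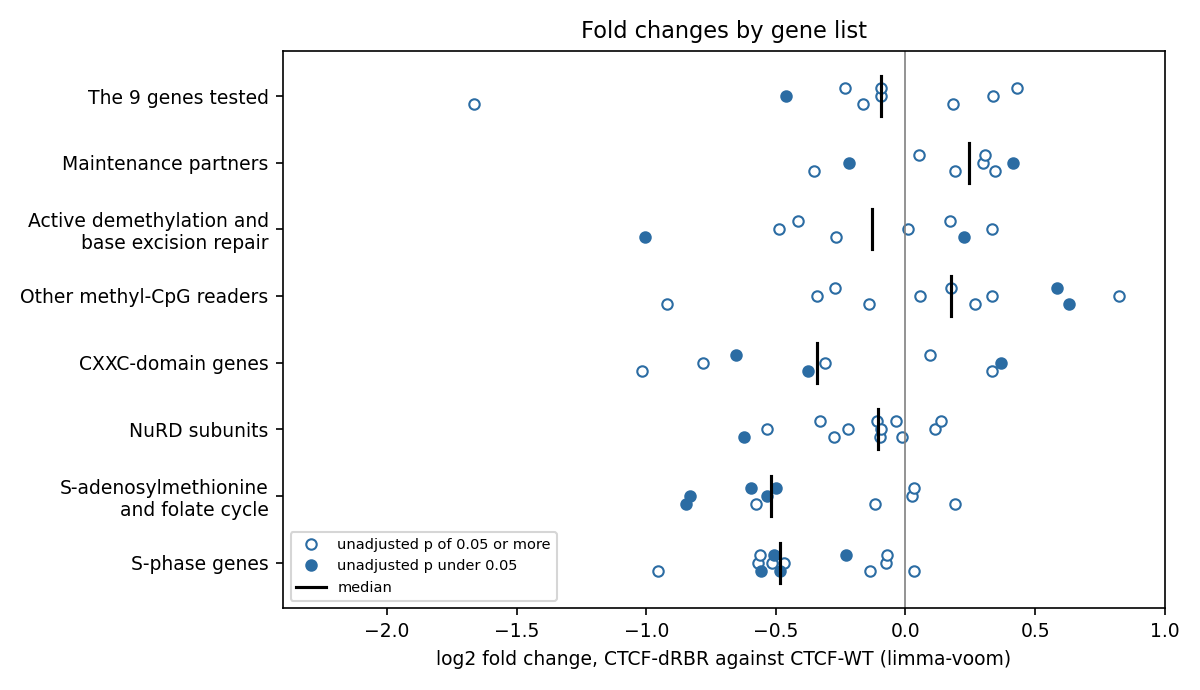
Log2 fold change, CTCF-dRBR against CTCF-WT, of each tested entry by list (limma-voom), with filled points for an unadjusted p under 0.05 and a bar for the list's median. The S-adenosylmethionine and S-phase lists lie mostly below 0, with medians of -0.52 and -0.49 (-0.30 and -0.18 without CTCF-dRBR replicate 1), and no gene of any list passed the adjusted threshold.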

How the data were processed

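Total RNA of 3 CTCF-WT and 3 CTCF-dRBR SEM libraries was extracted with TRIzol and depleted of ribosomal RNA. Per the methods and the submitters' processing notes, the authors trimmed reads with Trim Galore (version 0.6.3), aligned them to GRCh37 with STAR (version 2.7.9a) and quantified Gencode genes with RSEM (version 1.3.1). The deposited expected counts are RSEM estimates per gene, not normalized. The deposited TPM are divided by effective length and scaled by the authors over all genes, non-coding RNAs included. The labels call the reads single-end and the methods paired-end. UHRF1 was matched to the GRCh37 annotation by symbol, the others by identifier.

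In R (version 4.3.3), genes that did not reach 1 CPM (counts scaled to a common library total) in at least 1 library were dropped, leaving 14044 of 57820. The unrounded expected counts were scaled by TMM from edgeR (version 4.0.16). The groups were tested by voom in limma (version 3.58.1), following the methods of the study, with no covariate. This test is called limma-voom here. Counts were rounded for DESeq2 (version 1.42.0) and edgeR's quasi-likelihood test. Tests were two-sided, with Benjamini-Hochberg adjustment over all genes tested and a threshold of 0.05. Ratios and levels were compared by exact permutation tests in Python (version 3.11.15, scipy version 1.17.1). The smallest p of 3 libraries against 3 is 0.1. The GC trend was removed by a loess curve (span 0.5, degree 2) fitted in each library to the deviation of log2 CPM from the gene mean (prior count of 1). Fits were tested on simulated counts. The precision is set by 3 libraries per group, and 3 counts in a library equal 0.0564 to 0.0999 CPM.

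The genes and lists were chosen with earlier results of these data known. The text names all 10 genes, in each list the genes past the threshold or, where 0 pass, the 3 with the highest mean TPM, and the nearest patterns. Genes named where their counts bear on a result (CTCF, UQCR11, DNMT3L, QSER1, CDT1 and KMT2B) were chosen after their values were seen. Alternatives changed the test, scaling, filter, unit, library set, replicate block and GC or length trend.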

Additional observations from a re-analysis of the deposited data

How the results depend on the processing

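The number of genes called by limma-voom, 0 of 14044, was 1619 with DESeq2, 9583 with quality weights, 833 and 760 in log2(TPM + 1) and log2(TPM + 0.1), 1279 with the GC trend removed and 3158 with the GC trend removed and without CTCF-dRBR replicate 1. Leaving out 1 library at a time gave 0 to 535, the highest without CTCF-dRBR replicate 1. Of the 9 genes tested, the same alternatives called 1 with DESeq2, 7 with quality weights, 1 with the GC trend removed and 3 when CTCF-dRBR replicate 1 was also left out, and 0 in each leave-one-out fit. Of the 69 tested entries of the lists they called 15, 46, 10 and 19, and 0 to 3 in leave-one-out fits. The cause of these shifts was not tested.

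Log2 fold changes of DNMT1 had the opposite sign at 1.04 and 1.05 in the 2 TPM fits, 0.58 in TPM rescaled to protein-coding genes, 0.23 with the GC trend removed, 0.23 with the replicate block added and 0.14 with CTCF-dRBR replicate 1 also left out. For UHRF1 these were 0.045 with quality weights, 0.44 and 0.45 in TPM, 0.14 without CTCF-dRBR replicate 1, 0.35 with the GC trend removed, 0.35 with the replicate block added, 0.32 with that library also left out and 0.020 with the length trend removed, and -0.28 to 0.14 over the leave-one-out fits. TET3 gave 0.19 and 0.27 in TPM, 0.0079 with the GC trend removed and 0.014 with the replicate block added. MBD1 gave 0.20 and 0.21 in TPM, 0.070 with the GC trend removed and 0.072 with the replicate block added. TPM shifted the median of all genes by 0.40 and 0.54 in log2. The signs of DNMT3A, DNMT3B, TET2, MBD2 and MBD3 held under every alternative run. MBD3 ranged from -2.41 to -0.82 over the leave-one-out fits.

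Differences in mean deposited TPM had the opposite sign in CPM for DNMT1 (-14.7), UHRF1 (-16.0), TET3 (-5.18) and MBD1 (-7.96), and in rescaled TPM for TET3 (-0.514) and MBD1 (-6.45). That of DNMT3A, -0.293, ranged from -1.21 to 1.33 without 1 library, and was 0.363 without CTCF-dRBR replicate 3. The log2 ratio of UHRF1 to DNMT1 was 0.0037 in CPM. Without CTCF-dRBR replicate 1 it was -0.11 in TPM, and that of MBD3 to MBD2, -2.09, was -1.05. MBD3 minus MBD1, 3.01 TPM, was -1.75 and -1.95 without CTCF-WT replicates 1 and 2, up to 7.94 without CTCF-dRBR replicate 1, and -0.647 in deposited TPM, a comparison chosen after seeing the data.

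The titles do not say whether replicate numbers pair the samples. Deviations of same-numbered libraries from their group means correlated at -0.341, 0.0993 and -0.471. As these deviations also carry the depth and GC trends of each library, they cannot decide whether a number stands for a pair. With the replicate block, limma-voom called 0 genes (1423 unadjusted), and DNMT3A was at -0.46 with an adjusted p of 0.419. Depth limits TET1, with at most 28 counts in a library.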

Other observations

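Germline genes that are usually methylated and silent at their promoters in somatic cells were read beside the methylation machinery. All 10 that were listed (DAZL, DDX4, SYCP3, MAEL, SYCE1, TDRD1, STK31, HORMAD1, BOLL and TEX101) stayed under 1 CPM in each library and none was tested. Their counts lay between 0 and 22 per library. HORMAD1, a meiotic chromosome axis gene with the highest mean TPM of these, had 11, 13 and 11 counts in CTCF-WT replicates 1 to 3 and 8, 12 and 20 counts in CTCF-dRBR replicates 1 to 3. TDRD1, BOLL and TEX101 had 0 counts in all CTCF-WT libraries, and in CTCF-dRBR they had 2, 2 and 2, then 3, 2 and 0, then 2, 0 and 1 counts, at or under the 3 counts taken as the floor, so no fold is given.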
